A study of Mus musculus with 44 samples.

Results

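Ribonucleoprotein immunoprecipitates of differentiating C2C12 cells were compared on day 4, when 3 arrays of RNA recovered with an antibody against AUF1 stood against 4 arrays of RNA recovered with control IgG. These 7 arrays were chosen by the pulldown and day given in the sample labels and column names, out of 44 arrays in the series. C2C12 is an immortal mouse myoblast line. In growth medium with 10% fetal serum it divides, and after a change to medium with 2% horse serum it leaves the cell cycle and fuses into myotubes. Both day 4 groups came from this line and this regime, carried no genetic change that the labels name, and differed in the antibody on the beads: anti-AUF1 in one group and non-specific IgG in the other. The other arrays used here were AUF1 and IgG pulldowns of day 0 (growing cells, 4 and 4 arrays), day 2 (3 and 3) and day 6 (4 and 4), and input of days 0, 3 and 6 (5 arrays each), which the protocol calls RNA and the titles call DNA. The 44 arrays include no input of day 4. The column names carry an E number from 1 to 4, read here as the number of the experiment: the AUF1 arrays of day 4 are of experiments 1, 3 and 4 and the IgG arrays of experiments 1 to 4. Among the 5 input arrays of each day, 2 carry the same number. The labels do not say that replicates were separate cultures, so the p-values below measure the spread between arrays of the same group, which may be technical.

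AUF1, the product of Hnrnpd, is an RNA-binding protein of the cytoplasm and nucleus that recognises AU-rich elements, sequences found mainly in the untranslated ends of short-lived mRNAs. Depending on the mRNA and the cell it can speed decay, stabilise the message or alter its translation. The series was made to learn how AUF1 acts in muscle cell formation, with the muscle transcription factor MEF2C as the named target. In such a pulldown an RNA that AUF1 holds should be richer on the AUF1 beads than on the IgG beads, which measure what sticks to beads and antibody. The probes of the table carry Illumina identifiers only, 0 of 25697 occur in the gene table at hand, and neither genes nor the sequences of the probes are given here. Mef2c and the markers of muscle or other cells could therefore not be looked up, and the labelled cell type could not be checked.

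The day 4 arrays differed in brightness before any comparison of single RNAs. A probe counts as detected where its detection p-value, deposited with each signal, is under 0.05. With AUF1, 32.7% of the 25697 probes were detected in experiment 1, 24.5% in experiment 3 and 39.9% in experiment 4. With IgG the shares were 44.6% in experiment 1, 25.6% in experiment 2, 43.5% in experiment 3 and 46.8% in experiment 4. The AUF1 array of experiment 3 and the IgG array of experiment 2 were thus the dimmest of their groups, and the other 3 IgG arrays lay above every AUF1 array. The dim IgG array also stood apart from its group in its normalized levels, being nearer to the AUF1 mean than to the mean of the other IgG arrays at most probes, as described further on, so results are given with and without both dim arrays. The mean deposited signal was 135, 84.4 and 162 with AUF1 and 374, 85.7, 267 and 369 with IgG, in the same order of experiments.

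The AUF1 arrays averaged 32.3% ± 7.68 detected probes (SD, n = 3) and the IgG arrays 40.1% ± 9.80 (SD, n = 4), a difference of -7.77 percentage points that did not exceed the spread (exact permutation test, two-sided p = 0.314; smallest possible p 0.0286). Mean signals were 127 ± 39.5 (SD, n = 3) and 274 ± 135 (SD, n = 4), a difference of -147 (exact permutation p = 0.143; adjusted p = 0.286 over these 2 tests). Without the dim array of each group the detected shares were 36.3% ± 5.06 (SD, n = 2) and 45% ± 1.72 (SD, n = 3). Since these arrays were left out for their low brightness, these values are a description only. The mean signals were 148 ± 19.7 (n = 2) and 337 ± 60.8 (n = 3). Within experiments 1, 3 and 4 the AUF1 array was the dimmer one each time, by a mean difference of -12.6 ± 6.02 points (SD, n = 3; exact permutation p = 0.25, the smallest possible).

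**Figure D1:**
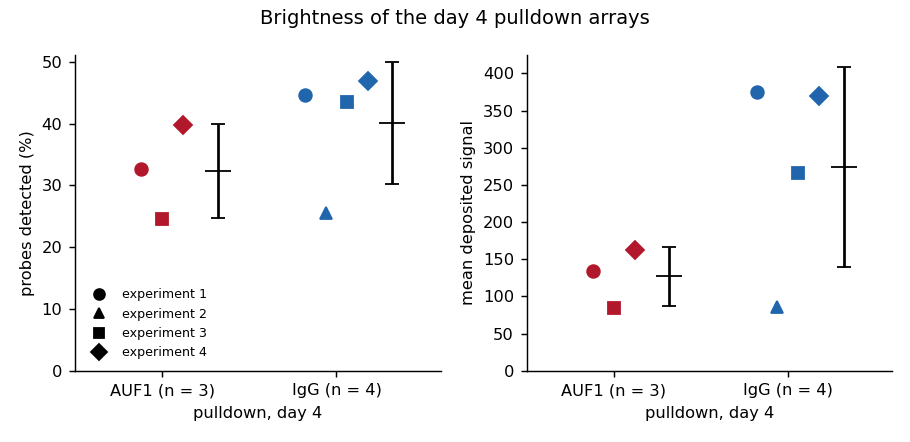
Percent of probes detected (left) and mean deposited signal in arbitrary units (right) on each day 4 array, by pulldown. Symbols mark the experiment number, and the bar beside each group is its mean with 1 SD. The AUF1 array of experiment 3 (24.5%) and the IgG array of experiment 2 (25.6%) lie below the rest of their groups.

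Detection itself was lopsided within experiments. In experiment 1, 3510 probes were detected with IgG and not with AUF1 and 450 the other way round. In experiment 3 the counts were 5256 and 383, and in experiment 4 they were 2364 and 568. Few probes showed such a pattern on every array: 64 were detected on all 4 IgG arrays and on no AUF1 array, and 15 on all 3 AUF1 arrays and on no IgG array. Among the 5 brighter arrays these counts were 913 and 71. In each case more RNAs were seen only with IgG than only with AUF1, alongside the higher brightness of the IgG arrays, whose part in this was not tested.

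Normalized levels of the 5 brighter arrays were much alike across the 13812 probes tested, with Pearson's r of 0.95 to 0.97 between arrays of the same pulldown and 0.93 to 0.97 between AUF1 and IgG. The dim arrays stood further off, at 0.84 to 0.92 for the AUF1 array of experiment 3 and 0.81 to 0.88 for the IgG array of experiment 2. Probes are not independent replicates, and these values describe the arrays only.

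The comparison of AUF1 with IgG asked which RNAs were over- or under-represented on the AUF1 beads in cells 4 days into differentiation. Signals of all 29 pulldown arrays were background-corrected and quantile normalized, which gives every array the same distribution of log2 values, so that higher and lower below are relative to the other RNAs of the same array. Differences were tested with limma in 1 fit of all pulldown groups and adjusted over all 13812 tested probes. The fit takes 1 spread per probe from the arrays of days 0, 2, 4 and 6. Its standard errors and p-values therefore do not measure the spread of the day 4 arrays alone. In that test 95 probes (0.688%) differed at adjusted p under 0.05: 38 were higher with AUF1 and 57 lower. For 36 of the 38 and 53 of the 57, both groups had a detected signal on at least 1 array. These 36 were higher by 0.77 to 1.84 log2 units with a median of 1.22, and 30 of them by at least 2-fold. The 53 differed by -3.06 to -0.78 with a median of -1.36, 49 of them by at least 2-fold and 8 by at least 4-fold, a size none of the 36 reached. With the other probes placed at the bounds given further on, the medians of all 38 and all 57 were 1.22 and -1.36. A size can include values of arrays on which the probe was not detected, as for ILMN_2901944 below. Over all tested probes the median difference was -0.05 and the median size 0.34. Standard errors of the called differences ran from 0.16 to 0.64 log2 units.

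The AUF1 and IgG values of all 95 called probes did not overlap, but neither did those of many others. Complete separation of the 3 arrays from the 4 occurred at 1940 probes (14%), so separation is far more common than a call. At an unadjusted p under 0.05 there were 2524 probes. The number of calls depended on single arrays: it was 36, 0 and 129 with the AUF1 array of experiment 1, 3 or 4 left out in turn, and 6, 377, 30 and 37 with the IgG array of experiment 1, 2, 3 or 4 left out. With the day 4 arrays fitted alone limma called 0 (1428 at an unadjusted p under 0.05). With the experiment number within each day as a block it called 3398 (1696 higher, 1702 lower), among them all 95. The IgG array of experiment 2 has no AUF1 array of its number on day 4. The block fit therefore gives it no weight in the day 4 difference, and its count stands beside the 377 without that array.

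**Figure D2:**
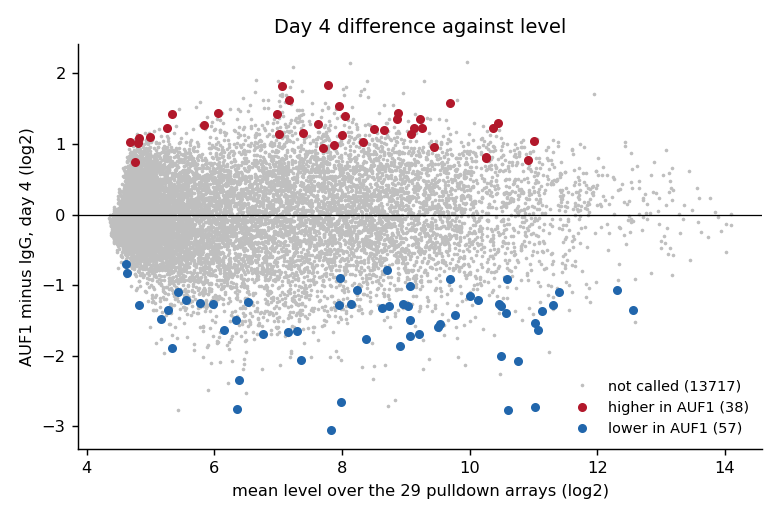
AUF1 minus IgG difference on day 4 (log2) against the mean level of each of 13812 probes over the 29 pulldown arrays (log2). Red points are the 38 probes called higher in AUF1, blue points the 57 called lower and grey points those not called. The lower probes reach -3.06 and the higher ones 1.84.

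The called probes leaned towards probes of high signal, which across different probes is no measure of RNA abundance. When the tested probes were divided by mean level into 5 bins of 2762 or 2763, 50 of the 95 lay in the top bin (17 higher, 33 lower) and 22 in the next, against 4 in the lowest. The median difference of all probes in a bin ran from -0.10 to 0.06. Of the 38 higher probes 27 were detected on all 7 arrays, and of the 57 lower ones 37, against 4846 of all 13812 tested probes. The lower set lost detection mainly with AUF1, where 47, 37 and 53 of the 57 were detected in experiments 1, 3 and 4, while at least 53 were detected on each IgG array. For 4 of them no AUF1 array gave a detected signal. Their normalized values then give only a bound, which was at least 3.88-fold lower than IgG for one probe and at least 2.11-fold for another. For the remaining pair the bound was under 1 and no fold is given. Of the higher set 2 probes were detected on no IgG array, with bounds of at least 1.49-fold and at least 1.24-fold.

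Most of the higher probes were higher only relative to their array. In the deposited signals, before normalization, the AUF1 mean exceeded the IgG mean for 6 of the 38, and for 623 of all 13812 tested probes (4.51%). For all 57 lower probes the AUF1 mean was below the IgG mean in the deposited signal too. When arrays were instead scaled to a common median, the difference of all probes shifted by a median of -0.73 log2 units. On that scale 2 probes were called higher and 733 lower, and relative to the shift all 95 called probes kept their direction. The same arrays chose the 95, so the kept direction is no separate test.

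Probe ILMN_1212702 had the largest positive difference among the called probes. Its normalized log2 signal was 8.16, 9.49 and 8.33 with AUF1 (experiments 1, 3 and 4), and 6.46, 6.22, 7.64 and 6.96 with IgG (experiments 1 to 4). Every AUF1 array was above every IgG array, and the dim AUF1 array of experiment 3 was the highest of all. The group means were 8.66 ± 0.72 (SD, n = 3) and 6.82 ± 0.63 (n = 4), a difference of 1.84 ± 0.42 (log2, SE; limma adjusted p = 0.0452). The deposited signals were 161, 161 and 233 with AUF1 and 220, 63, 305 and 315 with IgG, so the unscaled signal was not higher with AUF1. Without both dim arrays the difference was 1.23 ± 0.47 (adjusted p = 0.317), and under median scaling it was 0.23 (adjusted p = 0.745).

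Probe ILMN_1215893 showed the same pattern from a lower level. It stood at 7.65, 8.50 and 7.80 with AUF1 and at 6.48, 4.74, 6.82 and 6.60 with IgG. The AUF1 array of experiment 3 was again the highest and the IgG array of experiment 2 the lowest, where the probe was not detected (its deposited detection p-value was above 0.05). The lowest value of a detected probe on that IgG array was 6.04, so 4.74 is no measured level. The size of the difference with all arrays rests partly on it. Deposited signals were 127, 99.4 and 173 with AUF1 and 224, 57.6, 184 and 252 with IgG. The difference was 1.82 ± 0.37 (SE; adjusted p = 0.0309) with all arrays and 1.10 ± 0.31 (adjusted p = 0.185) without the dim arrays. Under median scaling it turned to -0.08.

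Probe ILMN_2901944 had the lowest difference as normalized. It stood at 6.87, 4.59 and 6.33 with AUF1 and at 9.01, 8.24, 9.62 and 9.08 with IgG. The groups were far apart on all arrays, and on the AUF1 array of experiment 3 the probe was not detected. The lowest value of a detected probe on that array was 6.18, against 5.28 and 4.81 on the AUF1 arrays of experiments 1 and 4. The 4.59 is therefore no measured level, and the size of -3.06 rests partly on it. The difference was -3.06 ± 0.64 (SE; adjusted p = 0.0363), and without the dim arrays -2.65 ± 0.71 (adjusted p = 0.157).

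Probe ILMN_2416670 was the one of these 4 that held its call without the dim arrays. Its levels were 9.67, 9.28 and 9.79 with AUF1 and 12.47, 11.29, 12.69 and 12.96 with IgG. The AUF1 arrays lay close together, and the IgG array of experiment 2 was the lowest of its group but still above all of them. Deposited signals were 420, 145 and 616 with AUF1 against 9829, 591, 9279 and 14024 with IgG. The difference was -2.77 ± 0.46 (SE; adjusted p = 0.0118) with all arrays and -2.96 ± 0.51 (adjusted p = 0.0319) without the dim ones.

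**Figure D3:**
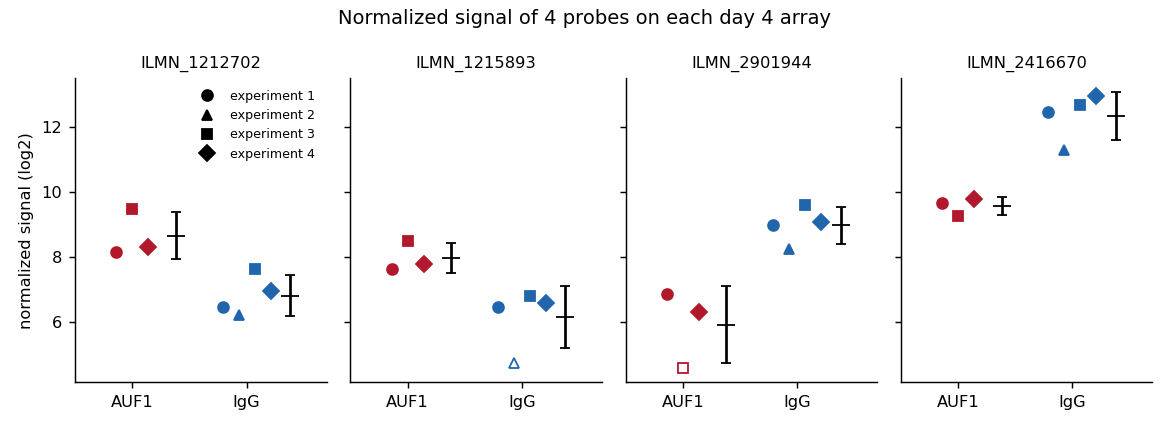
Normalized log2 signal of the 2 called probes with the highest and the 2 with the lowest difference, on each day 4 array. Symbols mark the experiment, open symbols a detection p-value of 0.05 or more, and bars the group mean with 1 SD. For ILMN_1212702 and ILMN_1215893 the AUF1 array of experiment 3 is the highest, at 9.49 and 8.50.

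The count of calls moved in opposite directions with the 2 dim arrays. Without both of them 20 of 13715 probes (0.146%) were called, 1 higher and 19 lower, and 1558 had an unadjusted p under 0.05. Of these 20, 11 were among the 95 (1 higher and 10 lower), and the other 9, all lower, had adjusted p of 0.0551 to 0.125 with all arrays. All 95 kept their sign and an unadjusted p under 0.05, with the median falling from 1.22 to 1.05 for the higher and moving from -1.36 to -1.23 for the lower set. These 5 arrays are among those that chose the 95, so this is no separate test. Leaving out the AUF1 array of experiment 3 alone gave 0 calls in limma (1341 at an unadjusted p under 0.05), while leaving out the IgG array of experiment 2 alone gave 377 (2.74%), 133 higher and 244 lower, which held 89 of the 95.

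The IgG array of experiment 2 could then be set against probes it had not helped to choose. At the 377 probes called without it, it lay nearer to the mean of the 3 other IgG arrays at 127 (33.7%) and nearer to the AUF1 mean at 250. Over all tested probes it was nearer to its own group at 41.3%. This control array therefore resembled the AUF1 arrays more than the other controls at most of these probes. The AUF1 array of experiment 4, the brightest with AUF1, showed the converse: of 129 probes called without it, it was nearer to the AUF1 mean at 44 (34.1%; 46.9% of all probes). The AUF1 array of experiment 1 was on the side of its own group at 24 of 36 such probes (66.7%; 54.6% of all probes). The IgG arrays were so at 6 of 6 (69.2% of all) in experiment 1, 22 of 30 (73.3%; 63.6% of all) in experiment 3 and 31 of 37 (83.8%; 58.9% of all) in experiment 4. Without the AUF1 array of experiment 3 there were no called probes to set it against, and over all probes it was nearer to its own group at 63.5%. The arrays nearer to the other group at most such probes were thus the dimmest control and the brightest AUF1 array. The AUF1 array of experiment 4 also correlated most with the IgG array of its own number (r = 0.97). With the AUF1 arrays of experiments 1 and 3 its r was 0.95 and 0.88. For an AUF1 array the mean of its own group rests on fewer arrays than the IgG mean, so the measure is uneven. The parts of brightness and of experiment number in this were not tested.

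**Figure D4:**
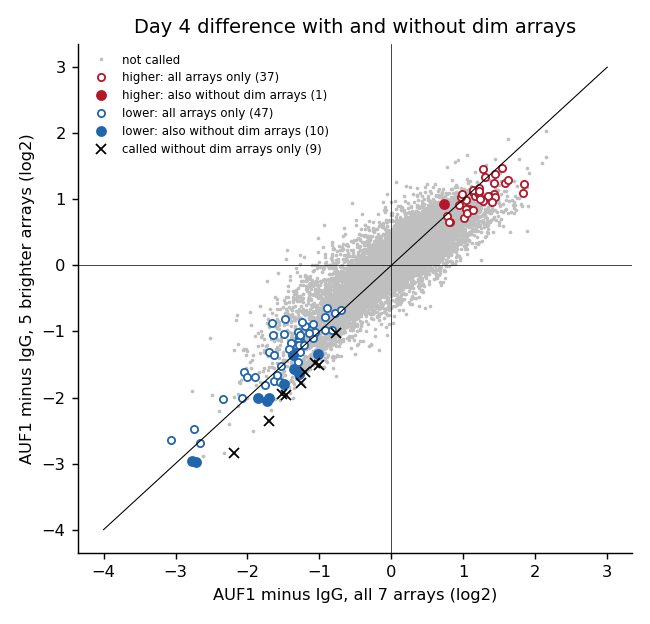
AUF1 minus IgG difference on day 4 (log2) with all 7 arrays (horizontal) and with the 5 brighter arrays (vertical), for each tested probe. The line marks equal values, filled points are the 11 probes called both ways, open points those called with all arrays only, and crosses the 9 called without the dim arrays only. The median of the higher probes is 1.22 with all arrays and 1.05 without the dim ones.

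Differences between the AUF1 and the IgG array of the same experiment share no array between experiments. Across the 13812 probes they correlated at r = 0.61 (experiments 1 and 3), 0.64 (1 and 4) and 0.53 (3 and 4), and across the 4846 probes detected on all 7 arrays at 0.71, 0.75 and 0.73. The median size of the difference was 0.42 log2 units in experiment 1, 0.60 in experiment 3, which holds the dim AUF1 array, and 0.31 in experiment 4. In the 3 experiments the higher set had medians of 1.16, 1.35 and 0.93 and the lower set of -1.30, -1.76 and -1.33. The sign in each experiment is fixed by the separation of the groups. The AUF1 array was also the dimmer one in all 3 experiments.

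Differences between arrays of the same pulldown were set against the AUF1 minus IgG differences in the same way. The IgG array of experiment 2 minus another IgG array correlated with the AUF1 minus IgG difference of an experiment that shares no array with it at 0.10 to 0.47 over 6 such combinations. Over probes detected on all 7 arrays it was 0.04 to 0.34. The highest values, 0.47 and 0.41 (0.34 and 0.22 over those probes), were with experiment 3, whose AUF1 array is the other dim one. With experiments 1 and 4 they were 0.10 to 0.30 (0.04 to 0.17 over those probes). The dim AUF1 array minus the AUF1 array of experiment 1 or 4 gave 0.24 and 0.32, and 0.35 and 0.14 over probes detected on all 7 arrays. Between the 3 brighter IgG arrays, experiment 1 minus 3 gave -0.20, 1 minus 4 gave -0.03 and 3 minus 4 gave 0.04. Over probes detected on all 7 arrays these were -0.22, -0.10 and -0.11. Their sign follows the order of subtraction, which was not always the dimmer array minus the brighter. The array of experiment 1 was brighter than that of experiment 3, and the size of 0.20 lies within the range seen with the dim arrays. The values with either dim array were thus all above 0, but below those between the experiments. For the dim IgG array, those with experiments 1 and 4 over probes detected on all 7 arrays did not exceed 0.17. That is less than the size of 0.22 between 2 brighter IgG arrays. The part of brightness in this was not tested. These are descriptions across probes of jointly normalized arrays, with no p-value.

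The 95 probes were then followed on other days. The arrays of those days took part in choosing them through shared steps only. These were the normalization, the estimate of spread and the detection filter that set which probes were tested. Their columns carry the same E numbers as those of day 4, and whether the days are separate material is not known. On day 2 all 38 higher probes were above 0 (44.8% of all tested probes were), with a median difference of 0.83, and all 57 lower probes were below 0 (55.2% of all), with a median of -1.37. Limma called 11 of the 38 higher (background 0.579%) and 39 of the 57 lower (background 1.55%). On day 0 all 38 were again above 0 (50.2% of all tested probes) with a median of 0.72, and 54 of the 57 were below 0 (49.8% of all) with a median of -1.08. The calls on day 0 were 0 of 38 (background 0%), with 31 of them at an unadjusted p under 0.05, and 16 of 57 (background 0.145%). The direction on day 4 was therefore also found in growing cells and on day 2.

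On day 6 the medians of both sets were nearer to 0, while most probes kept the day 4 direction. The higher set had a median of 0.17 with 35 of 38 above 0 (51.4% of all tested probes), and the lower set -0.36 with 48 of 57 below 0 (48.6% of all). Limma called none of the tested probes on that day (background 0%), with 132 of all, 2 of the 38 and 12 of the 57 at an unadjusted p under 0.05. The AUF1 arrays of day 6 had 33.3% to 45.5% of probes detected and the IgG arrays 35.7% to 45.8%, ranges that nearly coincide. On day 0 they were 28.6% to 40.9% and 34% to 46.3%, and on day 2 they were 24.4% to 35.5% and 39.3% to 42.8%. The medians and the gap in brightness were thus both smaller on day 6 than on the other days. Their relation was not tested.

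**Figure D5:**
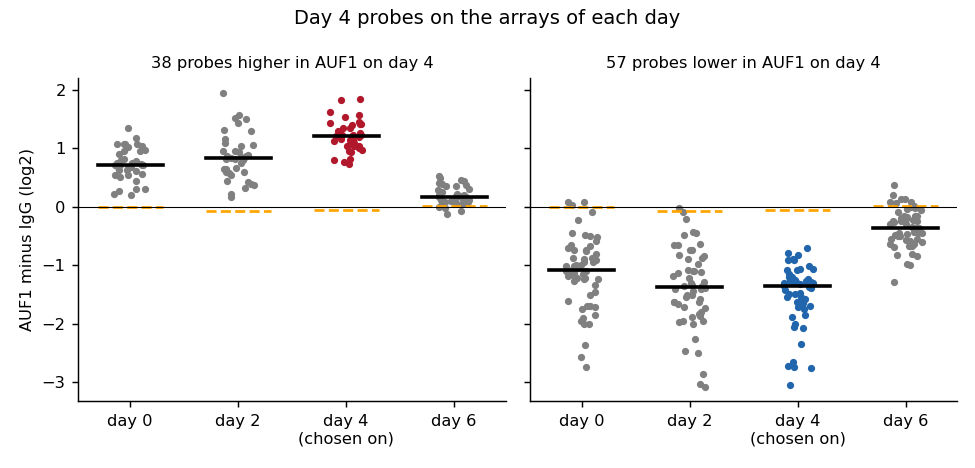
AUF1 minus IgG difference (log2) on days 0, 2, 4 and 6 for the 38 probes called higher (left) and the 57 called lower (right) on day 4. Each point is a probe, solid lines are medians of the set and dashed lines medians of all tested probes. Day 4 values chose the probes, and medians on day 6 are 0.17 and -0.36.

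The departure of day 4 from the other days was tested directly. The difference on day 4 minus the mean difference of days 0, 2 and 6 was called at 0 of 13812 probes by limma (0%; 270, or 1.95%, at an unadjusted p under 0.05, lowest adjusted p 1.000). Against day 6 alone it was also 0, with 659 at an unadjusted p under 0.05 (4.77%). Against day 0 it was 0 with 182, and against day 2 it was 0 with 311. Among the 95, 61 had a larger difference on day 4 than on each other day, but day 4 is the day they were chosen on. ILMN_2416670 differed by -2.58 ± 0.42 (log2, SE; limma adjusted p = 0.0133) on day 0, -2.48 ± 0.49 (0.0151) on day 2 and -0.84 ± 0.42 (1.000) on day 6. ILMN_1212702 differed by 1.34 ± 0.39 (adjusted p = 0.138), 1.95 ± 0.45 (0.0291) and 0.17 ± 0.39 (1.000) on these days. No difference on day 4 was shown to be particular to that day.

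Input RNA, normalized separately, showed what these RNAs did in the cells themselves. Of the 38 higher probes 35 were tested in input, and by day 3, 14 had fallen against day 0 and 2 had risen, while 20.3% of all 13750 input probes fell and 17.2% rose. By day 6, 16 had fallen and 3 had risen (23% and 19.5% of all). Of the 57 lower probes 55 were tested, of which 18 had risen and 9 had fallen by day 3, and 18 and 10 by day 6. The median change by day 3 was -0.37 log2 units for the higher set, 0.23 for the lower set and -0.02 for all input probes. By day 3, 40% of the tested higher probes had fallen and 32.7% of the tested lower ones had risen. Over all probes tested in both fits 21.3% fell and 17.6% rose. The share of falling probes was thus above the background in the higher set and the share of rising probes above it in the lower set. These are shares beside the background and no test of the sets, and the background is not matched for signal level. With the input arrays of the same experiment number averaged, which leaves 4 values a day, 13 of the higher set fell and 2 rose by day 3 (17% and 14.6% of all), and 16 of the lower set rose and 9 fell. Over all 12511 probes tested in both fits the day 4 difference and the day 3 input change correlated at r = -0.06, so no general relation was seen.

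Among the called probes tested in input, the strongest fall and the strongest rise by day 3 belonged to probes followed above. ILMN_2416670, lower with AUF1, rose in input from a log2 level of 6.51 ± 1.48 (SD, n = 5) in growing cells to 12.10 ± 0.28 by day 3 and 11.95 ± 0.25 by day 6 (change by day 3 of 5.59; limma adjusted p = 8.6e-08). ILMN_1212702, higher with AUF1, fell from 9.74 ± 0.79 to 5.46 ± 0.33 and stood at 5.93 ± 0.56 on day 6 (change of -4.27; adjusted p = 2.6e-08). ILMN_2901944, lower with AUF1, also fell, from 7.56 ± 0.47 to 5.58 ± 0.32 (adjusted p = 1.4e-06). With same-numbered arrays averaged (n = 4) the changes by day 3 were 5.36 for ILMN_2416670, -4.31 for ILMN_1212702 and -1.92 for ILMN_2901944 (limma adjusted p = 6.2e-06, 1.6e-06 and 1.6e-05). ILMN_1215893 stood at 7.44 ± 0.85 on day 0 and 6.87 ± 0.26 on day 3 (adjusted p = 0.140).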

How the data were processed

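The authors deposited 1 table of signal intensities, not normalized per its file name, with a detection p-value per probe and array, per the file headers. GenomeStudio 1.6.0 is listed, with no role given, in the submitters' processing notes. Any background subtraction before deposit is unknown here, and the lowest signal was 32.4. Columns were matched to groups by pulldown and day. All 44 signal columns could be matched, leaving 0 unused.

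Signals of the 29 pulldown arrays went through these steps in limma 3.58.1 (R 4.3.3): normexp correction from the detection p-values, offset 16, quantile normalization and log2. Probes with detection p under 0.05 on at least 3 arrays were tested (13812) with a mean per group, moderated by eBayes (21 residual degrees of freedom) and adjusted by Benjamini-Hochberg. The 15 input arrays were treated alike on their own (13750 probes). The fit was tested on simulated data. Array summaries were compared by exact permutation (35 arrangements).

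Planned gene lists and markers could not be used without gene names. Named probes are the 2 highest and 2 lowest differences among the called. The arrays, lists and rules were chosen with earlier results of these data known. The bounds use, per array, the lowest normalized value of a detected probe where it exceeds that of the probe. The arrays differ in brightness, and the number of arrays limits the precision. Experiment numbers were not taken as pairs on day 4.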

Additional observations from a re-analysis of the deposited data

Results flagged for a closer look

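In 7 of 34 groups of 4 or 5 arrays, 1 array stood far from the rest by Dixon's ratio at the 95% level. The rate of about 1 group in 20 that this level implies cannot be set against this count. The same arrays recur among the groups, and the 4 probes were chosen for extreme differences on day 4. The low detected share is also what marked the IgG array of experiment 2 as dim. On day 4, the IgG array with the lowest detected share (25.6%, the next at 43.5%) and the IgG array lowest for ILMN_1215893 (4.74, the next at 6.48) were such arrays, both of experiment 2. ILMN_1215893 was not detected on that array. On other days the lowest IgG array of day 0 stood at 7.65 for ILMN_1212702 (next 9.07) and at 7.999 for ILMN_2901944 (next 10.7), and the lowest AUF1 array of day 0 at 7.56 for ILMN_2416670 (next 8.64). In input RNA of day 0 the highest array stood at 8.95 for ILMN_1215893 (next 7.20) and at 9.09 for ILMN_2416670 (next 6.42). The cause of these values was not tested.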

How the results depend on the processing

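Array-level differences kept their direction under all alternatives. Those that drop arrays or block could not reach an exact permutation p under 0.05. The 95 day 4 calls became 147 without background correction, 735 under median scaling (2 higher, 733 lower), 51 among probes detected on at least 14 arrays, 20 without the dim arrays, 2297 with array weights, 44 with trend and robust moderation and 0 with day 4 arrays alone (limma; 1428 at an unadjusted p under 0.05). Settings added after the data were examined gave 1114 (experiment number across days) and 1241 (detected percent as covariate). Averaging same-numbered input arrays, also added then, gave 4341 changed input probes by day 3 in place of 5148. Without 1 array the count ran from 0 to 377: 36, 0 and 129 when AUF1 experiment 1, 3 or 4 was dropped, and 6, 377, 30 and 37 when IgG experiment 1, 2, 3 or 4 was. The test of day 4 against the other days stayed at 0, or 1 without the AUF1 array of experiment 4 (0 to 1 over single arrays). ILMN_1215893 turned to -0.0772 under median scaling. Of 18 alternatives, ILMN_1212702, ILMN_1215893, ILMN_2901944 and ILMN_2416670 lost their calls under 9, 5, 6 and 2. The causes were not tested.

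Same-numbered arrays deviated from their group means with correlations of 0.30, -0.09 and 0.72 in experiments 1, 3 and 4. Of the AUF1 arrays 2 of 3, those of experiments 1 and 4, correlated best with their own number. Pairing by number was not adopted in the main fit, though the values of experiments 1 and 4 favour it. The numbers that end the column names are also adjacent for same-numbered IgG and AUF1 arrays. They are 5 and 6 in experiment 1, 21 and 22 in experiment 3, and 29 and 30 in experiment 4. What these numbers stand for is not known here. The dim AUF1 array of experiment 3 correlated best with the dim IgG array of experiment 2 (0.47). As a replicate block the number gave 3398 calls (1696 higher, 1702 lower), among them all 95, and 0 for day 4 against the other days (1114 at an unadjusted p under 0.05). In that fit the unpaired IgG array of experiment 2 has no weight in the day 4 difference.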
